A study of Mus musculus with 12 samples.

Results

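The genes described here are 44 interferon-stimulated effector genes, a list of genes whose products sense or block viruses and other intracellular microbes. They were picked by symbol from a list of known genes, chosen with earlier results of these data known. All 44 were found among the 14460 genes of the deposited table, and all 44 lay above the filter on low values that 12879 genes passed. RNA was sequenced from GFP+ cells sorted from the hearts of Cx3cr1GFP/+ mice aged 2 to 3 months. In these mice GFP replaces 1 copy of Cx3cr1, a chemokine receptor gene of monocytes and macrophages, so that every group, the uninjured one included, lacks that copy. Hearts were taken 3, 7 or 30 days after cryoinjury, a freezing injury used as a model of myocardial infarction, or from mice without any surgery, called day 0. Each of the 4 groups had 3 libraries, described as independent biological replicates; no label names a batch or a sham operation, and the labels do not say whether hearts were pooled. Cells of day 3 were sorted as Ly6c-high and CX3CR1-low, and cells of days 0, 7 and 30 as Ly6c-low and CX3CR1-high, so time after injury and sorting gate cannot be told apart in any comparison with day 3.

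Type I interferons bind a receptor of IFNAR1 and IFNAR2, and interferon gamma binds IFNGR1 and IFNGR2. The kinases JAK1, TYK2 and JAK2 then pass the signal to transcription factors. STAT2 and IRF9 act at the interferon-stimulated response element (ISRE), and interferon gamma is known to act through the gamma-activated site (GAS). The genes switched on in this way encode sensors of foreign nucleic acid, enzymes and binding proteins that stop viral replication, the ubiquitin-like modifier ISG15 with its enzymes, and GTPases that attack the vacuoles of intracellular parasites. Macrophages and monocytes are among the cells in which this program is known to be strong, and it is known from infarcted hearts as well as from infection.

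Levels are given as signal, the linear normalised read count of the deposited table. Depth was 5828904 to 13199576 reads per library, and a gene with 0 reads could hold a signal of up to 0.190 to 0.543 by library, a limit that covers counting error only. The markers went with the labels: Ly6c2, which encodes the antigen of the day 3 gate, had 619.8 to 1004 signal at day 3 and 1.32 to 20.7 at day 0, and Cx3cr1 had 33.8 to 44 at day 3 and 145 to 157 at day 0. Of the 9 macrophage and monocyte markers tested, 3 were higher and 4 lower at day 3. Their summed signal was 7662 to 10993 at day 3 and 14965 to 16577 at day 0. Most of it was Lyz2 (4004 to 7034 at day 3, 11575 to 12414 at day 0). Csf1r, the receptor gene on which macrophages depend, had 495 to 613 at day 3 and 1455 to 1849 at day 0. Fcgr1 went the other way, with 490.3 to 722 at day 3 and 84.5 to 108 at day 0. So did Cd68 (911 to 1106 and 362 to 409) and Itgam (1153 to 1301 and 406 to 531). The 3 day 30 libraries were unusually alike, with a median chi-square per gene of 0.687 to 0.865 between pairs of them and 1.48 to 8.74 between pairs within the other groups. The second day 7 library stood apart, with 29.1% of its reads on Gm26924 and Lars2 (13.9% in both other day 7 libraries) and a summed fibroblast marker signal of 2190.2 (776 and 557.0 in the others). The first day 0 library, which every comparison with day 0 uses, also stood apart: mitochondrial genes took 21.3% of its reads (39.2% and 39.0% in the other day 0 libraries), and its summed signal was 70.6 for cardiomyocyte markers (217 and 373) and 40.7 for T and NK cell markers (194 and 137). No label says whether the day 30 libraries came from separate hearts or from 1 pool, and their p-values hold only if they are separate samples.

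Promoter sequence came from RefSeq (GRCm38.p6), as windows of 250 bases before and 50 bases after a gene start. Windows were found for 32 members; none was matched for Dhx58, Zbp1, Ifi204, Oas2, Mx1, Mx2, Rtp4, Usp18, Parp9, Parp14, Iigp1 and Gbp5. The ISRE core was searched as GAAANNGAAA, or TTTCNNTTTC on the other strand, and the GAS core as TTCNNNGAA, which reads the same on both strands. The ISRE letters stood in a window of 19 of the 32 members (59.4%), against 4.05% of 9045 tested genes with a window and 3.44% of 32851 windows of all genes. The GAS letters stood in 9 of the 32 (28.1%), against 8.51% of the tested genes and 8.3% of all windows. All 5 sensors with a window and 6 of 7 GTPases held the ISRE letters, as did 6 of 12 antiviral effectors, 2 of 5 genes of the ISG15, ubiquitin and ADP-ribose group and none of 3 other members. The members had 30 ISRE matches, 25 of them before the start and all of these within 160 bases of it; the median match began at base -53 from the start. A pair of overlapping matches, 1 ISRE and 1 GAS, was found in Bst2. These matches describe letters in a window and do not show binding.

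The stretches below are a selection from the members with ISRE letters. They include the pair Igtp and Irgm2, which shows how alike members' promoters can be. Other members with the letters, such as Ifi205, Gbp7 and Ifih1, are not printed. ISRE letters are in capitals, with up to 30 bases on either side. Isg15 lies on the minus strand (chr4:156200845-156200926) and has 3 overlapping matches, at bases -78 to -57. Ifit1 (chr19:34640755-34640843) and Ifit3 (chr19:34583343-34583446), on the plus strand, have 2 matches each. Rsad2 (chr12:26456533-26456602) and Oas3 (chr5:120777695-120777764), on the minus strand, have 1 match each. Gbp2 (chr3:142620574-142620643, plus strand) has 1 match and Irgm1 (chr11:48871405-48871480, minus strand) has 2. Igtp (chr11:58199492-58199561) and Irgm2 (chr11:58214883-58214952), both on the plus strand, have 1 match each. The Igtp and Irgm2 stretches were identical at 68 of 70 bases, and the best ungapped alignment of their whole windows, shifted by 30 bases, at 184 of 270 bases (68.1%).
Isg15: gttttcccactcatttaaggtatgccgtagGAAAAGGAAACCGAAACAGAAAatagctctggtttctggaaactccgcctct
Ifit1: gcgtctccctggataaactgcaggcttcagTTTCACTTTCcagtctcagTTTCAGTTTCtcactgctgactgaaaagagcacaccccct
Ifit3: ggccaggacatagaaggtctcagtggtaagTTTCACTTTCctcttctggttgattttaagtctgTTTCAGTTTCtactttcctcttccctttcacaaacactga
Rsad2: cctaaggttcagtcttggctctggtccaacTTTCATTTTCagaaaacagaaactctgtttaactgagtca
Oas3: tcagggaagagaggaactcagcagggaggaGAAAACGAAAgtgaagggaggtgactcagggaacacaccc
Gbp2: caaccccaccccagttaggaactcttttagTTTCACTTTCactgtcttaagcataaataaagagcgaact
Irgm1: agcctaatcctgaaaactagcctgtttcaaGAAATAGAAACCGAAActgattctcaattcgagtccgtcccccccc
Igtp: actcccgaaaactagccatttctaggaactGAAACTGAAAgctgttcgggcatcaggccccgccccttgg
Irgm2: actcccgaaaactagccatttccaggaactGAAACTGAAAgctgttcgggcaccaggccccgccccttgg

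**Figure D1:**
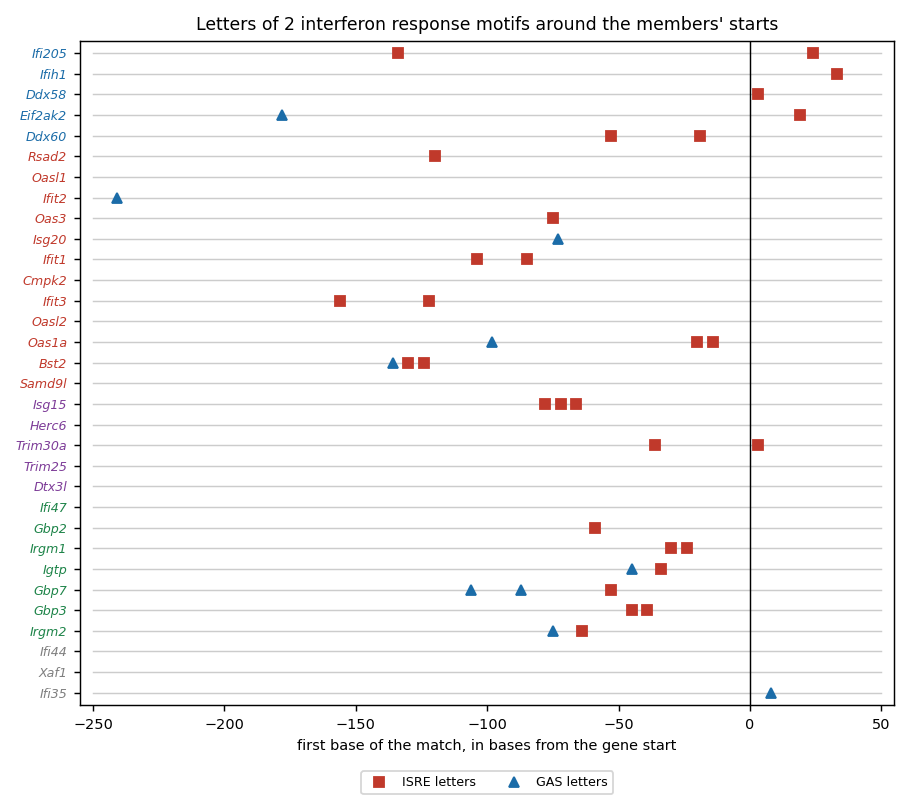
Position of the ISRE letters (squares) and GAS letters (triangles) in the promoter windows of the 32 members with a window, in bases from the gene start on the x axis; each grey line is 1 member, and names are coloured by role as in the plot of changes. The 30 ISRE matches lie between bases -156 and 33, and 25 of them lie before the start.

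At day 3 nearly the whole list was higher than at day 0. With limma on log2(signal + 1), at a Benjamini-Hochberg adjusted p under 0.05 over all tested genes, 43 of the 44 members were higher and 0 were lower; 22.1% of all tested genes were higher and 22.1% were lower. The member not called was the GTPase gene Iigp1. In all 44 members the 3 day 3 libraries lay above the 3 day 0 libraries, which held for 27.9% of all tested genes. The median log2 fold change was 2.70 over the members and -0.02 over all tested genes, and the members ranged from 0.79 to 6.01. In these bulk libraries a larger share of cells with the program and more of its RNA per cell cannot be told apart. The summed signal of the 44 genes was 12112, 18060 and 18704 in the day 3 libraries, against 2191, 2018 and 1984 in the day 0 libraries. Log2 fold changes are those of signal plus 1, which understates the change of low genes, and have standard errors (SE) from the spread pooled over all 12 libraries.

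**Figure D2:**
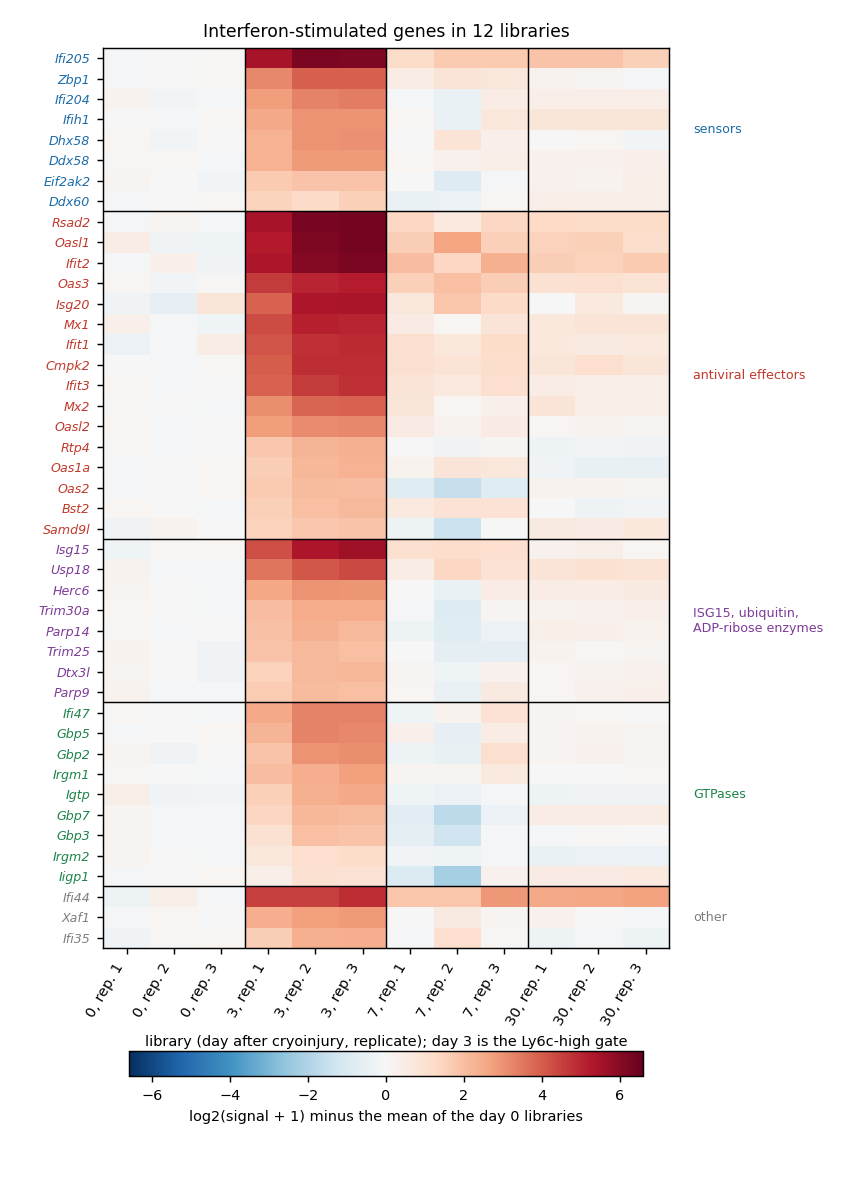
Each cell is log2(signal + 1) of 1 member in 1 library minus the mean of the 3 day 0 libraries; rows are the 44 members grouped by role and ordered within a role by their change at day 3, and columns are the 12 libraries by day. The day 3 columns are red throughout, with deep colours in Rsad2, Ifi205, Oasl1 and Ifit2, while days 7 and 30 are pale and mixed.

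The 16 antiviral effectors changed most as a group, with 16 higher at day 3 and a median log2 fold change of 4.5. Rsad2, which encodes viperin, an enzyme that makes a chain-terminating nucleotide, had 967, 1718 and 1746 signal in the day 3 libraries, against 20.3, 23.7 and 19.7 in the day 0 libraries (log2 fold change 6.01 ± 0.23 SE, n = 3 against 3, limma adjusted p = 4.84e-11). Its neighbour Cmpk2, which encodes a nucleotide kinase and starts 12752 bp away on the opposite strand (head to head, on GRCm38 chromosome 12), had 136, 249 and 257 at day 3, against 7.79, 7.13 and 8.15 at day 0 (4.58 ± 0.21, adjusted p = 3.63e-10). The first day 3 library was the lowest of its group in both genes, and neither gene's groups overlapped.

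Among the oligoadenylate synthetase genes, whose products make the messenger that activates RNase L, and their relatives, the sizes differed widely. Oasl1, which encodes a synthetase-like protein, had 119, 227 and 251 signal at day 3, against 3.56, 1.78 and 1.63 at day 0 (5.89 ± 0.32, adjusted p = 1.65e-09). No member had fewer reads in a library than its 9 in the third day 0 library, where Ifi44 had the same signal (1.63). Oas3 had 655, 857 and 970.3 at day 3, against 27.7, 22.8 and 26.6 at day 0 (4.94 ± 0.16, adjusted p = 2.21e-11). Oas2, on the same strand and 3245 bp from Oas3 on chromosome 5, had 305, 397 and 379.9 at day 3, against 84.5, 90.3 and 101 at day 0 (1.96 ± 0.19, adjusted p = 6.12e-07). Every day 3 library exceeded every day 0 library in all of these genes, and the log2 fold change of Oas3 was more than 2 times that of Oas2; the difference between the genes was not tested. Oasl2 and Oas1a rose by 3.00 ± 0.14 and 2.02 ± 0.19 on the log2 scale. Oas1a shares 57.6% of its 50-base stretches with Oas1g, so reads of the pair may have been split between them; Oas1g had 88.3, 108 and 116 signal at day 3, against 30.5, 25.4 and 26.1 at day 0.

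The IFIT genes encode RNA-binding proteins that act on viral transcripts, and all 3 members rose strongly. Ifit2 had 760.1, 1265 and 1421 signal at day 3, against 16.6, 22.9 and 15.4 at day 0 (5.87 ± 0.25, adjusted p = 1.56e-10). Ifit1 rose by 4.62 ± 0.23 and Ifit3 by 4.43 ± 0.20. The 3 genes lie within 100 kb of each other on chromosome 19 (34550694 to 34650009), on the plus strand. Ifit3 shares 51.2% of its 50-base stretches with Ifit3b, listed in the table as I830012O16Rik, which had 152, 219 and 265 signal at day 3, against 5.28, 6.40 and 2.35 at day 0. The dynamin-like GTPase gene Mx1 had 374, 667 and 632 at day 3, against 23.5, 17.1 and 14.9 at day 0 (4.82 ± 0.23, adjusted p = 3.90e-10); its neighbour Mx2, a polymorphic pseudogene in GENCODE M21, rose by 3.61 ± 0.25. The exonuclease gene Isg20 rose by 4.88 ± 0.40, with the widest relative spread of any member at day 3 (75.8 to 216 signal). Rtp4 rose by 2.12 ± 0.17, Bst2, which encodes the virion-tethering protein tetherin, by 1.91 ± 0.17, and Samd9l, with the smallest change in the group, by 1.74 ± 0.26.

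All 8 sensor genes were higher at day 3, with a median log2 fold change of 2.78. Ifi205, a gene of the HIN family of nucleic-acid-binding proteins, had 301, 513 and 491 signal at day 3, against 5.41, 5.98 and 6.34 at day 0 (5.94 ± 0.21, adjusted p = 2.77e-11). Its relative Ifi204 had 906, 1323 and 1380.1 at day 3, against 159, 118 and 128 at day 0 (3.14 ± 0.22, adjusted p = 2.09e-08). As a ratio, the levels of these relatives lay further apart at day 0 than at day 3: per kilobase of exon, Ifi204 had 338 signal at day 3 and 37.9 at day 0, and Ifi205 had 104 at day 3 and 1.41 at day 0. Both share sequence with Ifi211, listed as Mnda in the table (14.8% of the 50-base stretches of Ifi204 and 18.5% of those of Ifi205), which also had higher values at day 3.

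Zbp1, whose product binds left-handed nucleic acid and can start cell death, had 293, 491 and 492 signal at day 3, against 29.2, 32.3 and 32.6 at day 0 (3.68 ± 0.19, adjusted p = 1.01e-09). The RNA helicase genes Ifih1 (MDA5), Dhx58 (LGP2) and Ddx58 (RIG-I) rose by 2.82 ± 0.22, 2.75 ± 0.23 and 2.63 ± 0.16, with overlapping ranges of 1 standard error. Eif2ak2, which encodes the RNA-activated kinase PKR, rose by 1.84 ± 0.19, and the helicase gene Ddx60 by 1.44 ± 0.16. Ddx60 was the member in which the first day 3 library was not the lowest.

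All 8 genes of the ISG15, ubiquitin and ADP-ribose group were higher at day 3, with a median of 2.22. Isg15, the ubiquitin-like modifier itself, had 161, 349.7 and 423 signal at day 3, against 6.07, 8.6 and 8.51 at day 0 (5.06 ± 0.27, adjusted p = 1.13e-09). Per kilobase of exon it had the highest day 3 mean of all members, 412. Usp18, which removes ISG15 from proteins and restrains the type I receptor, had 113, 174 and 201 at day 3, against 10.7, 8.07 and 8.51 at day 0 (3.99 ± 0.23, adjusted p = 2.79e-09). Herc6, the main ISG15 ligase of mice, had 187, 245 and 235 at day 3, against 35.0, 29.9 and 27.5 at day 0 (2.81 ± 0.20, adjusted p = 3.51e-08). The modifier thus changed more than the enzymes that attach or remove it, though these differences between genes were not tested.

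The other 5 genes of that group had closely similar changes, from 1.91 to 2.32. Trim25, a ubiquitin ligase that acts on RIG-I, had 667, 816 and 727 signal at day 3, against 218, 178 and 158 at day 0 (2.00 ± 0.18, adjusted p = 3.35e-07). Parp14, a mono-ADP-ribosyltransferase, had 642, 850.4 and 737 at day 3, against 182, 161 and 166 at day 0 (2.12 ± 0.15, adjusted p = 3.48e-08). Dtx3l and Parp9, whose products form a complex and whose genes overlap by 682 bp head to head on chromosome 16, rose by 1.95 ± 0.19 and 1.91 ± 0.21. Where the genes overlap, reads cannot be assigned without strand, and the sources used here do not state the strand of the counting. Trim30a rose by 2.32 ± 0.21.

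The interferon-inducible GTPases had the smallest group median, 2.13, with 8 of 9 higher. Ifi47 had 248, 426 and 434 signal at day 3, against 45.3, 44.6 and 40 at day 0 (3.02 ± 0.26, adjusted p = 1.89e-07). Gbp2 had 106, 229.5 and 243 at day 3, against 32.1, 24.1 and 28.4 at day 0 (2.65 ± 0.35, adjusted p = 1.64e-05). The row named Gbp5 had 38.4, 80.8 and 74.0 at day 3, against 6.47, 7.55 and 7.97 at day 0 (2.91 ± 0.29, adjusted p = 9.55e-07). GENCODE M21 gives the identifier of that row, ENSMUSG00000040264, to Gbp2b, so which of these 2 guanylate-binding protein genes it measures is uncertain. In each of these rows the first day 3 library was the lowest of its group but above all of day 0.

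Igtp and Irgm2, the genes with the near-identical promoter stretches, rose by 2.13 ± 0.23 and 1.03 ± 0.15. Irgm2 had 112, 145 and 155 signal at day 3, against 75.9, 64.3 and 59.9 at day 0, and Igtp had 109, 191 and 210.1 at day 3, against 49.1, 30.5 and 32.8 at day 0. Their annotated genes overlap by 7974 bp on the same strand and they share 11.8% of the 50-base stretches of Igtp, so their counts may not be separate. Irgm1 rose by 2.39 ± 0.18, Gbp7 by 1.91 ± 0.27 and Gbp3 by 1.61 ± 0.28. Iigp1 had 32.9, 50.5 and 49.8 signal at day 3, against 22.3, 25.4 and 27.0 at day 0 (0.79 ± 0.41, adjusted p = 0.13). Its groups did not overlap; it was called without the second day 7 library (adjusted p = 0.0148), without the third (0.0256), or with days 3 and 0 fitted alone (0.00593). Those day 7 libraries had 4.62 and 30.5 signal of Iigp1.

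Of the 3 other members, Ifi44 had 61.3, 61.9 and 79.2 signal at day 3, against 1.19, 2.52 and 1.63 at day 0 (4.64 ± 0.26, adjusted p = 2.31e-09). Xaf1, which encodes a protein that promotes apoptosis, had 172, 213 and 225 at day 3, against 29.6, 33.8 and 30.6 at day 0 (2.65 ± 0.17, adjusted p = 1.26e-08). Ifi35 had 45.1, 76.0 and 77.3 at day 3, against 12.1, 14.7 and 15.8 at day 0 (2.11 ± 0.28, adjusted p = 2.10e-05). Members with and without the ISRE letters in their windows covered much the same range of change, 1.03 to 6.01 (median 2.39, 19 members) with them and 1.74 to 5.89 (median 3.00, 13 members) without.

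**Figure D3:**
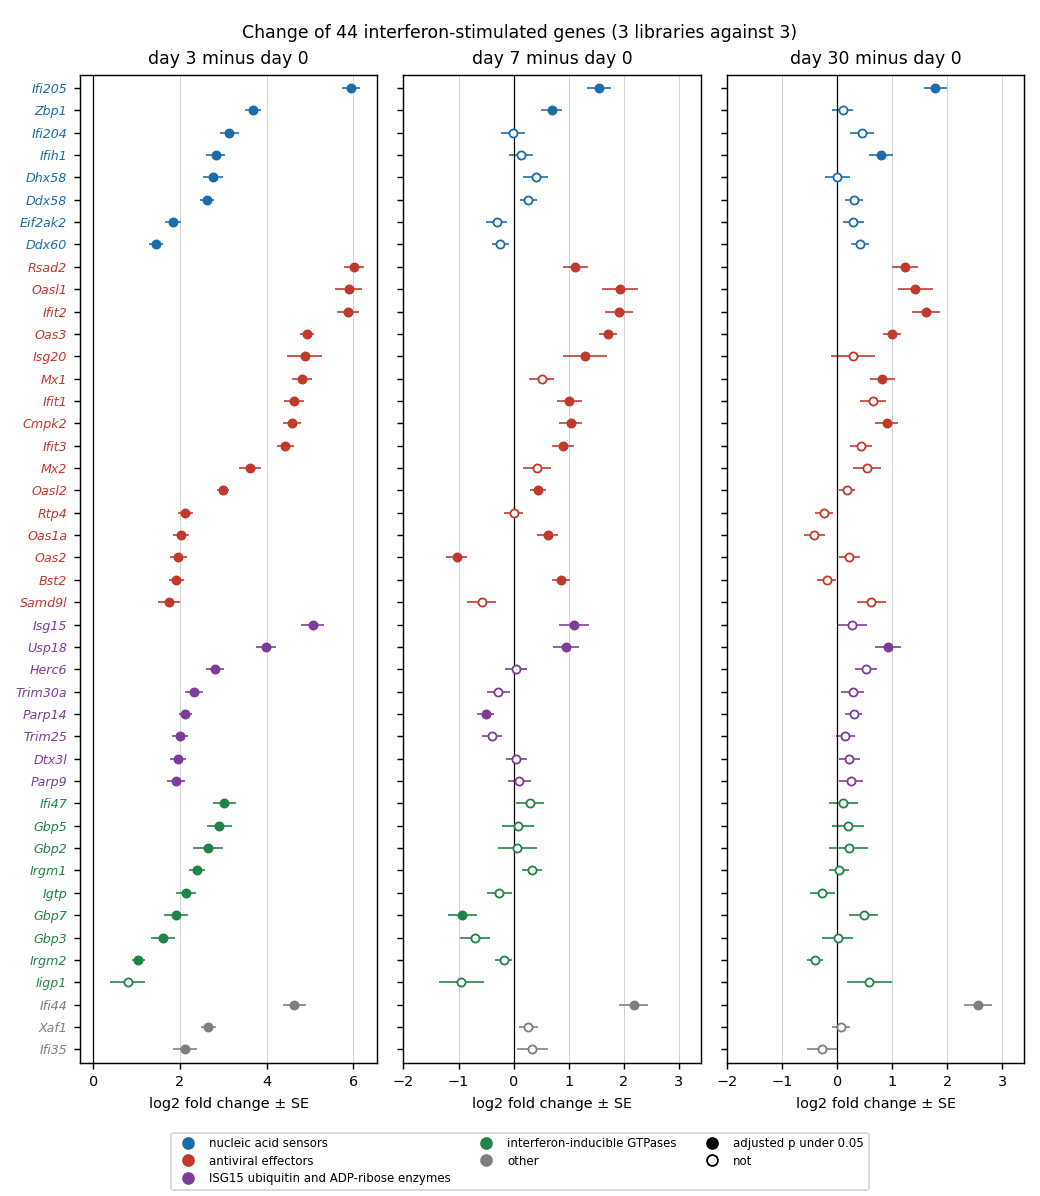
Log2 fold change (points) with its SE (bars) of the 44 members at day 3, day 7 and day 30, each minus day 0 (n = 3 libraries against 3); filled points have a limma adjusted p under 0.05, colours mark the roles, and the x axis of the first panel is wider than the others. All points lie right of 0 at day 3, and the filled points at day 7 and day 30 are mostly antiviral effectors.

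The first day 3 library was the lowest of its group in 43 of 44 members, against 37.8% of all tested genes. It also had the lowest summed Ly6C-high monocyte signal (3659.9, against 5532 and 5027 in the other day 3 libraries) and the highest neutrophil signal (158, against 81.2 and 109). Between the groups, 7 of the 8 Ly6C-high monocyte genes tested were higher at day 3 and 1 lower (summed signal 3659.9 to 5532 at day 3, 1659 to 1795 at day 0). The lower gene was F13a1 (197 to 272 at day 3, 1239 to 1471 at day 0). It made most of the day 0 sum, so the sums understate the rise of the other 7 genes. Of the 4 neutrophil genes tested, 2 were higher (81.2 to 158 at day 3, 5.02 to 46.0 at day 0), and all 5 T and NK cell genes tested were lower (4.72 to 11.5 at day 3, 40.7 to 194 at day 0). Of the plasmacytoid dendritic cell genes, a cell type known for type I interferon, 0 of 3 tested were higher and 1 lower. Their summed signal was 153 to 160.0 at day 3 and 153 to 190.4 at day 0, most of it Tcf4 (151 to 158 and 143 to 178). Siglech had 0.397 to 0.958 signal at day 3 and 6.52 to 11.1 at day 0. Bst2, another marker of these cells, was left out of the count and the sum because it is a member, and it was higher (1.91 ± 0.17). All 7 cardiomyocyte genes were lower (7.44 to 12.2 at day 3, 70.6 to 373 at day 0), and of 8 fibroblast genes 4 were higher and 1 lower (285 to 383 at day 3, 40 to 118 at day 0). The part of these cell type markers in the members' change was not tested. Without the first day 3 library, 43 members were still higher.

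The other genes of the pathway were taken from a list of 37, of which 32 were in the table and 29 were tested. Of these, 21 were higher and 3 lower at day 3, against 22.1% and 22.1% of all tested genes. Among the ligands, Ifnb1, the interferon beta gene, had 1, 3 and 3 reads in the day 3 libraries, against 14, 20 and 19 reads in the day 0 libraries (signal 0.0958 to 0.397 and 1.85 to 3.44), and was called lower (-1.41 ± 0.30, adjusted p = 0.00149). Ifng had 1, 0 and 2 reads at day 3 and 3, 14 and 5 at day 0 and was under the filter. Ifnk, also under the filter, had 10, 4 and 2 reads at day 3 and 3, 4 and 5 at day 0. Only these 3 of the 8 ligand genes listed were in the table. Interferon reaching the sorted cells from other cells was not measured. Of the receptor genes, Ifnar1 (0.47 ± 0.13, adjusted p = 0.00811) and Ifngr2 (0.76 ± 0.15, adjusted p = 0.000925) were higher, but neither call held under quantile normalisation (Ifnar1 0.04, adjusted p = 0.81; Ifngr2 0.40, adjusted p = 0.0545). Ifngr1 was lower (-0.51 ± 0.13, adjusted p = 0.00439), and Ifnar2 did not pass (0.24 ± 0.13, adjusted p = 0.138).

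Among the transcription factor genes, Irf7, which amplifies type I interferon production, changed most: it had 324, 569.9 and 630.1 signal at day 3, against 15.0, 13.8 and 17.0 at day 0 (4.91 ± 0.26, adjusted p = 1.32e-09). Stat2 had 316, 455 and 450 at day 3, against 47.8, 38.2 and 47.3 at day 0 (3.16 ± 0.17, adjusted p = 9.67e-10). Irf9, which encodes the other ISRE-binding factor named above, rose by only 0.39 ± 0.14 (adjusted p = 0.0323), a call that ended without any of 6 single libraries (largest adjusted p 0.124, without the second day 3 library), under quantile normalisation (0.08, adjusted p = 0.692) and with day 30 averaged (0.0801). Irf3, which acts upstream of interferon, was at 15.3, 20.9 and 24.2 at day 3 and 28.2, 20.5 and 18.7 at day 0 (-0.15 ± 0.20, adjusted p = 0.551). Jak2 rose by 1.99 ± 0.24, and Jak1 was at 0.13 ± 0.13 (adjusted p = 0.409).

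Of the 10 sensing and adaptor genes, 8 were higher at day 3, led by the kinase gene Ikbke (2.81 ± 0.30) and the endosomal receptor gene Tlr9 (2.06 ± 0.23). Mavs, the adaptor of RIG-I and MDA5, was lower (-0.66 ± 0.19, adjusted p = 0.00927). Of the 6 inhibitor genes tested, 5 were higher. Over all tested genes, 22.1% were higher. The cytokine signalling inhibitor Socs3 and the phosphatase gene Ptpn2 rose by 1.82 ± 0.28 and 1.33 ± 0.20, and Trex1, which degrades cytosolic DNA, by 1.92 ± 0.28. Socs1, under the filter, had 15, 29 and 25 reads at day 3 and 3, 3 and 0 reads at day 0.

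**Figure D4:**
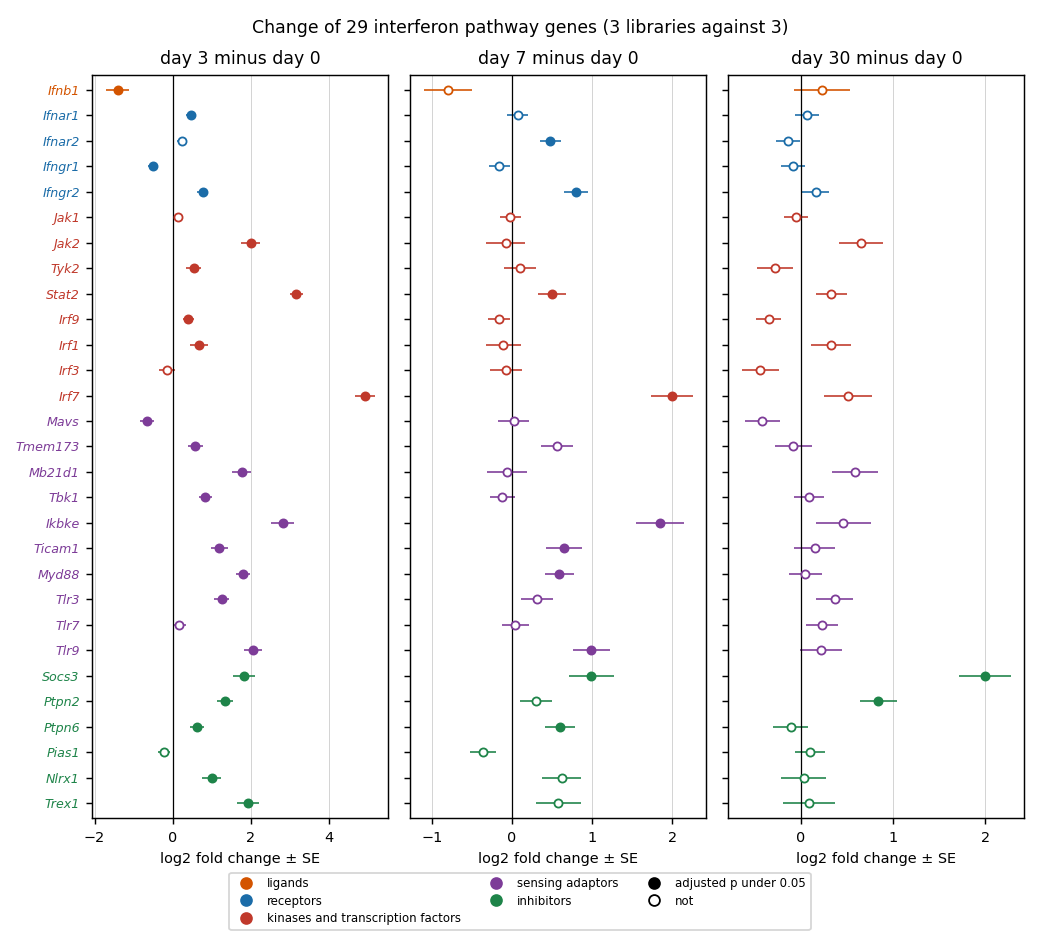
Log2 fold change (points) with its SE (bars) of 29 tested genes of the interferon pathway that are not members, at day 3, day 7 and day 30, each minus day 0 (n = 3 libraries against 3); filled points have a limma adjusted p under 0.05 and the x axes differ between panels. Irf7 lies farthest right at day 3 (4.91) and day 7 (2.00), and Socs3 at day 30 (2.00).

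At day 7 the list as a whole lay near the day 0 level, but not gene by gene. Ly6c-low cells of day 3 were not measured, so between days 7 and 3 time and sorting gate cannot be told apart. All 44 members were lower at day 7 than at day 3 and 0 were higher (23.5% and 23.3% of all tested genes), with a median log2 fold change of -2.61 and a range from -4.88 in Rsad2 to -1.05 in Bst2; every day 7 library lay under every day 3 library in all 44, as in 25.3% of all tested genes. Against day 0, 16 members were higher at day 7 and 3 lower (11.4% and 10.2% of all tested genes). The summed signal was 2207, 1882 and 2626 at day 7, against 2191, 2018 and 1984 at day 0. The members higher at day 7 included 11 of the 16 antiviral effectors, 2 of 8 sensors, 2 of 8 genes of the ISG15 group and 1 other member, and 0 of 9 GTPases; the medians were 0.88, 0.20, 0.04, 0.34 and -0.18 in that order of roles.

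The largest rises at day 7 against day 0 were those of Ifi44, Oasl1 and Ifit2. Ifi44 had 8.78, 8.79 and 18.8 signal at day 7, against 1.19, 2.52 and 1.63 at day 0 (2.18 ± 0.26, adjusted p = 4.03e-05). Oasl1 had 8.93, 18.8 and 8.47 at day 7, against 3.56, 1.78 and 1.63 at day 0 (1.93 ± 0.32, adjusted p = 0.000689). Ifit2 had 77.1, 47.7 and 95.4 at day 7, against 16.6, 22.9 and 15.4 at day 0 (1.91 ± 0.25, adjusted p = 9.42e-05). In each of these, the lowest day 7 library lay above the highest day 0 library.

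Oas3 had 76.8, 103 and 80.9 signal at day 7, against 27.7, 22.8 and 26.6 at day 0 (1.71 ± 0.16, adjusted p = 5.83e-06), and Ifi205 had 15.0, 21.6 and 21.9 at day 7, against 5.41, 5.98 and 6.34 at day 0 (1.55 ± 0.21, adjusted p = 0.000106). Rsad2, Isg15, Cmpk2, Ifit1, Usp18, Ifit3 and Bst2 rose by 0.86 to 1.12. Isg15 was the steadiest member at day 7, at 17.0, 18.3 and 17.4, against 6.07, 8.6 and 8.51 at day 0 (1.10 ± 0.27, adjusted p = 0.00996). The rises of Isg20 (1.29 ± 0.40), Zbp1 (0.69 ± 0.19), Oas1a (0.62 ± 0.19) and Oasl2 (0.44 ± 0.14) ended when single libraries were left out. For Zbp1 these were the first of day 0 (adjusted p = 0.0575) and the second of day 7 (0.053). For Isg20 they were the first and second of day 0 and the second and the third of day 7, with an adjusted p of up to 0.13. For Oas1a they were all of day 0, the second and the third of day 7 and the second and the third of day 30 (up to 0.101). For Oasl2 they were the second and the third of day 0, the second of day 3, the first and the third of day 7 and all of day 30 (up to 0.122).

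The members lower at day 7 than at day 0 were Oas2, Gbp7 and Parp14, a smaller share than the 10.2% of all tested genes. Oas2 had 52.8, 31.1 and 52.6 signal at day 7, against 84.5, 90.3 and 101 at day 0 (-1.03 ± 0.19, adjusted p = 0.00117), and this call held without any single library. Its neighbour Oas3 was 1 of the members higher in the same comparison. Gbp7, a guanylate-binding protein gene, had 38.3, 18.7 and 49.4 at day 7, against 72.2, 59.4 and 60.5 at day 0 (-0.93 ± 0.27, adjusted p = 0.0236). Parp14 had 133, 96.9 and 130.3 at day 7, against 182, 161 and 166 at day 0 (-0.51 ± 0.15, adjusted p = 0.0288). In all 3 genes the second day 7 library was the lowest; without it the adjusted p was 0.0682 in Gbp7 and 0.068 in Parp14, and both calls also ended without the first day 0 library (0.0678 and 0.0811) or the third (0.0535 and 0.0664), and that of Parp14 without the second (0.0559). Without the third day 7 library 7 members were lower, and without the first or the third day 0 library or the second day 7 library 1 was.

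The day 7 libraries differed more than those of the other days, in the members as in all tested genes. The median coefficient of variation at day 7 was 27.6% over the members and 28.1% over all tested genes. It was 10.7% and 17.7% at day 0, 23.5% and 17.8% at day 3, and 5.43% and 8.44% at day 30. The second day 7 library was the lowest of its group in 26 members (42.4% of all tested genes) and the third the highest in 27 (30.5%). Iigp1 had the widest spread of all, with 12.6, 4.62 and 30.5 signal at day 7, against 22.3, 25.4 and 27.0 at day 0 (-0.95 ± 0.41, adjusted p = 0.108). Of the 8 fibroblast genes, 6 were higher at day 7 than at day 0, with a summed signal of 776, 2190.2 and 557 in the day 7 libraries, against 40 to 118 in the day 0 libraries. The part of fibroblast RNA in the day 7 values was not tested.

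Of the 29 other pathway genes, 10 were higher and 0 lower at day 7 than at day 0 (11.4% and 10.2% of all tested genes). Irf7 had 42.5, 97.8 and 63.1 signal at day 7, against 15.0, 13.8 and 17.0 at day 0 (2.00 ± 0.26, adjusted p = 9.66e-05). Ikbke rose by 1.85 ± 0.30, Tlr9 by 0.99 ± 0.23 and Ifngr2 by 0.80 ± 0.15. The adaptor genes Ticam1 (0.65 ± 0.22) and Myd88 (0.59 ± 0.18), the inhibitor genes Socs3 (0.99 ± 0.28) and Ptpn6 (0.60 ± 0.19), and Stat2 (0.50 ± 0.17) were also higher. Each of these 5 calls ended without the second day 0 library (adjusted p 0.0802 to 0.16), among others. The rise of Ifnar2 (0.48 ± 0.13, adjusted p = 0.0158) ended only without the third day 0 library, of the 12 left out in turn (adjusted p = 0.075).

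At day 30 a small set of members was above day 0. Of the 44, 10 were higher and 0 lower (3.45% and 2.73% of all tested genes): the antiviral effectors Ifit2, Oasl1, Rsad2, Oas3, Cmpk2 and Mx1, the sensors Ifi205 and Ifih1, Usp18 and Ifi44. The median log2 fold change was 0.29 over the members and -0.01 over all tested genes. The day 30 libraries lay above all day 0 libraries in 27 members and under them in 3, as in 20.5% and 20.3% of all tested genes. These counts take the 3 closely alike day 30 libraries as separate samples. The count was 5 without the second or the third day 0 library or without the first or second day 30 library, and 6 without the third. With the mean of the 3 day 30 libraries as 1 sample, Ifi44 alone was called (13 genes higher and 1 lower over the whole table). Cell type markers moved as well: all 7 cardiomyocyte genes were lower (20.1 to 21.6 at day 30, 70.6 to 373 at day 0), 2 of 5 T and NK cell genes were lower and 2 of 8 fibroblast genes higher. Mitochondrial genes took 23.2 to 24.0% of reads at day 30 and 21.3 to 39.2% at day 0. The part of these in the members' change was not tested.

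Ifi44 had 14.2, 15.1 and 16.1 signal at day 30, against 1.19, 2.52 and 1.63 at day 0 (2.56 ± 0.26, adjusted p = 6.82e-05). Ifi205 had 24.0, 24.6 and 19.8 at day 30, against 5.41, 5.98 and 6.34 at day 0 (1.78 ± 0.21, adjusted p = 0.000234). Ifit2 had 57.0, 53.8 and 61.1 at day 30, against 16.6, 22.9 and 15.4 at day 0 (1.61 ± 0.25, adjusted p = 0.00181). In these genes each day 30 library had more than 2 times the signal of each day 0 library.

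Rsad2 had 53.3, 50.6 and 49.8 signal at day 30, against 20.3, 23.7 and 19.7 at day 0 (1.23 ± 0.23, adjusted p = 0.00579), and Oas3 had 52.1, 55 and 49.0 at day 30, against 27.7, 22.8 and 26.6 at day 0 (0.99 ± 0.16, adjusted p = 0.00287). These calls and those of Ifi44, Ifi205 and Ifit2 held without any single library, but with day 30 averaged the adjusted p was 0.332 in Rsad2, 0.265 in Oas3, 0.168 in Ifit2 and 0.0594 in Ifi205. The other 5 did not. Oasl1 had 8.34, 8.48 and 6.21 at day 30, against 3.56, 1.78 and 1.63 at day 0 (1.42 ± 0.32, adjusted p = 0.0174, and 0.0794 without the second day 0 library). Usp18 had 17.2, 19.4 and 17.5 at day 30, against 10.7, 8.07 and 8.51 at day 0 (0.92 ± 0.23, adjusted p = 0.0291, and 0.111 without that library). Cmpk2 had 14.1, 17.7 and 14.2 at day 30, against 7.79, 7.13 and 8.15 at day 0 (0.90 ± 0.21, adjusted p = 0.0211, and 0.0864).

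Mx1 had 30.4, 34.2 and 33.6 signal at day 30, against 23.5, 17.1 and 14.9 at day 0 (0.82 ± 0.23, adjusted p = 0.0482, and 0.15 without the second day 0 library). Ifih1 had 101, 100.3 and 101 at day 30, against 57.7, 54.6 and 61.6 at day 0 (0.79 ± 0.22, adjusted p = 0.0482, and 0.153 without that library). These 2 members had not passed at day 7. The calls of Mx1, Usp18, Cmpk2 and Ifih1 also ended without the third day 0 library or any 1 of the day 30 libraries, and that of Oasl1 without the third day 0 library or the first or second of day 30. Those of Mx1 and Ifih1 ended as well without the second or the third day 3 or the first day 7 library, and that of Ifih1 without the first day 0 library. Their largest adjusted p over the 12 single-library omissions were 0.178 in Mx1, 0.154 in Ifih1, 0.124 in Usp18, 0.118 in Cmpk2 and 0.0863 in Oasl1. None of the 9 GTPases passed at day 30, where 3.45% of all tested genes were higher and 2.73% lower. With shares that low, the count does not set the GTPases apart. Their log2 fold changes ran from -0.40 to 0.58.

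**Figure D5:**
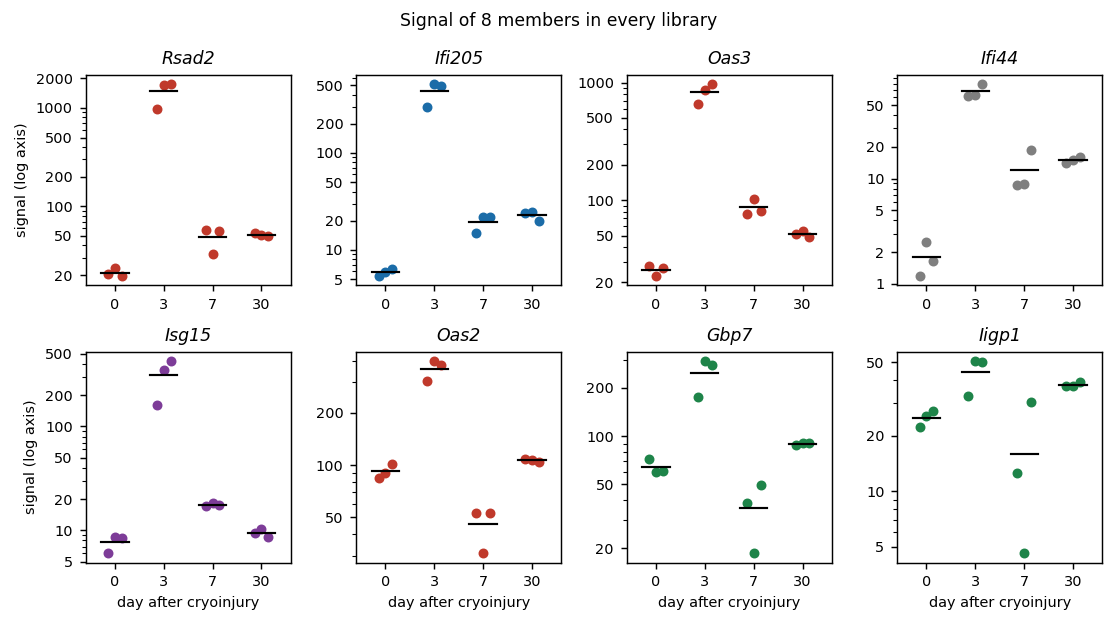
Signal (log axis, with a scale of its own in each panel) of 8 members in every library by day after cryoinjury; points are libraries, horizontal lines are means of 3, and colours mark roles as in the plot of changes. At day 7, Rsad2, Ifi205, Oas3, Ifi44 and Isg15 lie above day 0, while Oas2 and Gbp7 lie under it. The 3 day 7 points of Iigp1 spread from 4.62 to 30.5. At day 30 all 8 members lie above day 0, but Isg15, Oas2, Gbp7 and Iigp1 were not called there.

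Over the 3 comparisons with day 0, which share the day 0 libraries, 22 members passed at day 3 only. Another 8 were higher at all 3 days (Cmpk2, Ifi205, Ifi44, Ifit2, Oas3, Oasl1, Rsad2 and Usp18), 8 at days 3 and 7, and 2 at days 3 and 30. The 3 that were lower at day 7 were higher at day 3, and Iigp1 passed on no day. Passing on one day and not on another does not show that the days differ, so days 30 and 7 were compared directly.

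Between day 30 and day 7, 10 members were higher at day 30 and 5 lower (19.7% and 19.9% of all tested genes). The count of higher members was near that share, and the count of lower ones was under it. The median log2 fold change was 0.06 over the members and 0.01 over all tested genes. Oas2 was higher at day 30, with 109, 107 and 104 signal, against 52.8, 31.1 and 52.6 at day 7 (1.25 ± 0.19, adjusted p = 0.000199). Gbp7 had 88.4, 90.3 and 90.2 at day 30, against 38.3, 18.7 and 49.4 at day 7 (1.42 ± 0.27, adjusted p = 0.0011), and Iigp1 had 37.2, 36.9 and 39.1 at day 30, against 12.6, 4.62 and 30.5 at day 7 (1.53 ± 0.41, adjusted p = 0.00867). Samd9l, Parp14, Ddx60, Ifih1, Eif2ak2, Trim30a and Trim25 were higher by 0.55 to 1.2. With the day 30 libraries averaged, Oas2 kept its call, while the adjusted p was 0.0566 in Gbp7 and 0.138 in Iigp1, and the other 7 calls ended too. Without the second day 7 library the call of Ifih1 ended (adjusted p = 0.123), as did those of Eif2ak2 (0.0523), Trim30a (0.177) and Trim25 (0.0672); each ended without other single libraries as well. The log2 fold change of Iigp1 was 0.90 to 2.15 over the single-library omissions. The groups did not overlap in the 3 genes given by library, and the second day 7 library was the lowest of all in each.

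The 5 members lower at day 30 than at day 7 were Oas1a, Bst2, Isg15, Oas3 and Zbp1. Oas3 had 52.1, 55 and 49.0 signal at day 30, against 76.8, 103 and 80.9 at day 7 (-0.72 ± 0.16, adjusted p = 0.00367). Isg15 had 9.36, 10.3 and 8.62 at day 30, against 17.0, 18.3 and 17.4 at day 7 (-0.83 ± 0.27, adjusted p = 0.0242, and 0.0561 to 0.0788 without the second day 7 or the first or the third day 30 library). Oas1a and Bst2 changed by -1.04 ± 0.19 and -1.04 ± 0.17, and Zbp1 by -0.59 ± 0.19. The call of Zbp1 ended without the second (adjusted p = 0.0672) or the third (0.0584) day 7 library, without the third of day 30 (0.116) and under median centring (0.0533). With day 30 averaged Bst2 kept its call, and the adjusted p was 0.114 in Oas3, 0.0562 in Oas1a, 0.222 in Isg15 and 0.23 in Zbp1. Without the second day 7 library, or the first or the third of day 30, 6 members were higher at day 30, and without the third of day 30 there were 3 lower. The other pathway genes included Socs3, with 78.3, 83.7 and 76.6 signal at day 30, against 34.1, 13.3 and 15.2 at day 0 (2.00 ± 0.28, adjusted p = 0.000787), and Ptpn2 (0.84 ± 0.20, adjusted p = 0.0216, and 0.0501 to 0.098 without the first or second day 0 or any 1 day 30 library); no other of the 29 passed against day 0 at day 30, where 3.45% of all tested genes were higher, and with day 30 averaged neither call held (adjusted p = 0.122 in Socs3 and 0.611 in Ptpn2). Irf7 had 21.8, 21.8 and 22.8 at day 30, against 15.0, 13.8 and 17.0 at day 0 (0.51 ± 0.26, adjusted p = 0.271).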

How the data were processed

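RNA of sorted GFP+ heart cells was sequenced in 12 libraries, 3 for each of 4 days. Per the submitters' processing notes, cutadapt 1.3, RSEM 1.2.20, edgeR 3.14.0 and the build GRCm38 were used; the strand setting is not given in the sources used here. The deposited table holds the authors' normalised signal, which in the values equals reads divided by library size and TMM factor on a common scale. Reads were recovered from it (100% of values whole within 0.02 reads). Another 12 value columns were not used.

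For the 12879 genes whose signal averaged 1 or more, log2(signal + 1) was fitted with limma 3.58.1 (R 4.3.3), with a mean-variance trend, 1 fit of 4 group means and 8 residual degrees of freedom, two-sided, Benjamini-Hochberg over all tested genes, threshold 0.05. The alternatives were other pseudocounts (0.1, 5), other filters on low values (none, a mean of 5 or more), median centring, quantile normalisation, a replicate block, the compared groups alone, leaving out libraries, day 30 averaged as 1 sample, and edgeR 4.0.16 and DESeq2 1.42.0 on recovered reads; edgeR called 2771 genes higher and 2837 lower at day 3 against day 0. Day 30 libraries differed beyond counting noise (mean chi-square per gene 2.2 to 2.97), which does not show that they are separate samples; they were kept as 3 because the labels call them replicates, with their mean as an alternative. P-values measure the spread between these libraries.

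The members and lists were chosen with earlier results of these data known. Another gene of the pathway list is not reported here. Values are printed by library for the 3 members of each role with the largest change at day 3, its member with the highest mean signal, every member not called at day 3, every one lower at day 7 or 30, and every one called at day 30. Gene positions are those of GENCODE M21 (GRCm38), matched by identifier, and shared sequence was counted as 50-base stretches of its transcripts.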

Additional observations from a re-analysis of the deposited data

How the results depend on the processing

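The day 3 counts against day 0 (43 higher, 0 lower) and the day 7 counts against day 3 (0 higher, 44 lower) stayed within 1.5 times under every alternative run, with 43 to 44 and 44 over the single-library omissions. Over those omissions the count at day 7 against day 0 ran from 13 to 16 higher and from 1 to 7 lower, at day 30 against day 0 from 5 to 12 higher, and at day 30 against day 7 from 6 to 13 higher and from 3 to 7 lower. Fitting the compared groups alone gave 1 lower at day 7 against day 0, 20 higher and 2 lower at day 30 against day 0, and 6 higher at day 30 against day 7. Over all genes that fit gave 1413 higher and 1261 lower at day 30 against day 0 (444 and 352 in the reported fit), so the members' count moved with the whole table. Leaving out 2 libraries at once, the first of day 0 and the second of day 7, gave 1 lower at day 7 and 16 higher at day 30 against day 0 (1397 genes higher over the whole table). Quantile normalisation gave 1 lower at day 30 against day 0. With the day 30 libraries averaged there was 1 higher against day 0, and 1 higher and 1 lower against day 7; this alternative has fewer samples by construction, and for the others the cause was not tested. No call of a member changed sign under any alternative.

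Same-numbered libraries showed no sign of varying together (median correlation 0.0049 over 18 pairs, against -0.0069 over 36 pairs of different number). A weak factor shared by number could leave such values, so pairing is not excluded. With a replicate block the counts were 43 higher at day 3, 15 higher and 3 lower at day 7 and 9 higher at day 30, all against day 0.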
